A study of Mus musculus with 4 samples.

Results

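Integrins and the proteins that tie them to actin were followed through 4 mouse embryonic stem cell lines, 2 of which carried a conditional knockout of UTX and 2 a knockout. The set held 10 of 18193 genes named on the array, chosen by name with earlier results of these data known. They were 6 integrin subunits (Itgb1, Itgb5, Itga3, Itga5, Itga6 and Itgav) and 4 cytoplasmic adhesion proteins (Vcl, Zyx, Tln1 and Pxn). Every probe set assigned to one of these genes alone was taken, which gave 34 of 34945. UTX, the product of Kdm6a, is a histone demethylase that removes methyl groups from lysine 27 of histone H3. The question behind the series is which genes depend on UTX, and the comparison is KO against cKO.

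The 4 samples were UTX conditional knockout (cKO) cell lines 1 and 2 and UTX knockout (KO) cell lines 1 and 2, with 1 Affymetrix whole-genome mouse array each. Where a pair of values is given for a group, line 1 comes first. All lines had been kept on irradiated fibroblast feeders in medium with 15% serum and 1000 u/ml leukaemia inhibitory factor, passaged 2 times on 0.1% gelatin to clear the feeders, and plated without feeders at 1000000 cells per 10 cm dish. The labels give no strain or sex and do not say how the KO lines were made, whether a recombinase was expressed in the cKO lines, or whether KO line 1 came from cKO line 1. Nothing says that the RNA came from separate occasions, so a p-value here speaks only of the spread among these 4 samples, which may be partly technical. In bulk RNA, fewer cells of a type and less RNA per cell cannot be told apart.

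The arrays had been scaled to the same trimmed mean, and their median signals ran from 64.4 to 81.6. Kdm6a read 658 and 415 on the cKO arrays, against 265 and 198 on the KO arrays, and its log2 fold change, -1.17 (SE 0.27, limma, adjusted p = 0.0884), missed the threshold. It passed without cKO line 2 (-1.50, adjusted p = 0.0156), without KO line 1 (-1.38, adjusted p = 0.00985) and with centring on the median (-1.19, adjusted p = 0.0283), but not with cKO line 1 left out (-0.84, adjusted p = 0.239) or with probe sets averaged (-0.57, adjusted p = 0.522). The probe position relative to the deleted part was not used here, so this does not test the labels fully. The brightest stem cell markers were high on all arrays: Dppa5a read 20778 to 23491, Tdgf1 10685 to 12090 and Pou5f1 10179 to 11273. Some less bright stem cell markers, given below, read higher in KO.

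Integrins are paired receptors, each built from an alpha and a beta subunit, that hold cells to the extracellular matrix. Inside the cell talin (Tln1) binds the tail of the beta subunit and switches the receptor on, vinculin (Vcl) reinforces the link from talin to actin, zyxin (Zyx) gathers where adhesions and actin fibres are under tension, and paxillin (Pxn) is a scaffold for signalling proteins. In mouse embryonic stem cells the laminin and fibronectin receptors that contain the beta 1 subunit are well known, and adhesion through them is linked to the choice between self-renewal and differentiation.

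Of the 10 genes, 1 fell in KO cells and 9 did not pass the threshold, which was an adjusted p under 0.05 in limma over 10916 genes. The gene that fell was Itga3, the alpha 3 subunit. Over all genes 1.57% were called lower in KO, 0.632% were called higher, and 2.2% were called in either direction. By the values, 9 of the 10 had a negative log2 fold change, against 48.6% of all genes tested, and the median was -0.40 against 0.01. Both KO arrays lay below both cKO arrays for 7 of the 10, against a background of 21.2%, and for none of the 10 did both lie above, against 21.4%. An unadjusted p under 0.05 with a lower KO level was found for 4 (Itga3, Zyx, Itgb1 and Itga5), against 7.91% of all genes. With an array left out, the median of the 10 was -0.25 (cKO line 1), -0.66 (cKO line 2), -0.68 (KO line 1) or -0.31 (KO line 2). All 10 genes passed the filter on low signal, with means above 77.7. They were chosen with earlier results of these data known, so the shares set against all genes are no independent test.

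**Figure D1:**
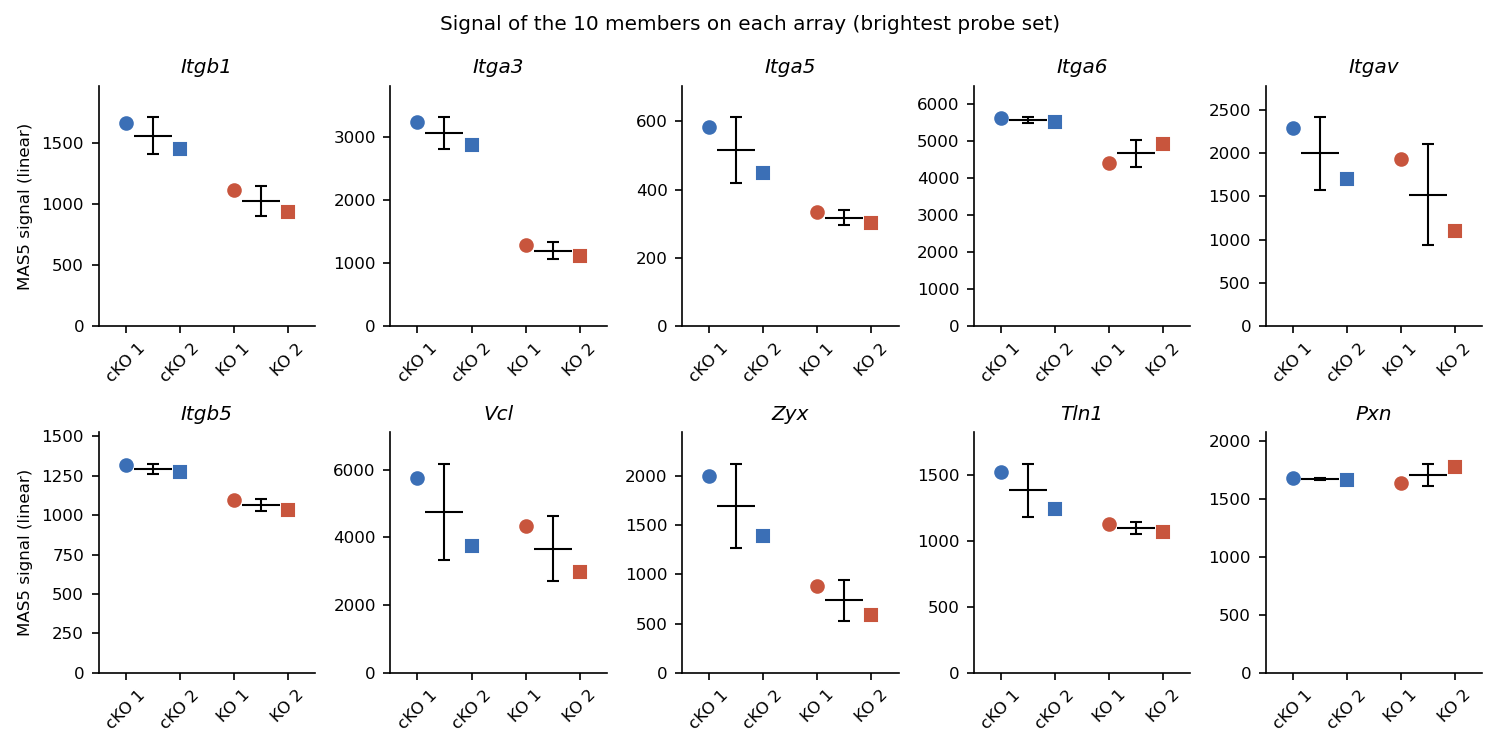
Signal of each of the 10 genes on each array, from the brightest probe set, on a linear axis that starts at 0 (MAS5 signal; circles, line 1; squares, line 2; blue, cKO; red, KO; black, mean ± SD, n = 2). Itga3 falls from 3231 and 2873 to 1292 and 1104, while the 4 values of Pxn lie between 1636 and 1773.

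Itga3 encodes the alpha 3 subunit, which pairs with beta 1 into a laminin receptor. On its brightest probe set Itga3 read 3231 and 2873 on the cKO arrays, against 1292 and 1104 on the KO arrays. Both KO values lay far below both cKO values. The means were 3052 ± 253 and 1198 ± 133 (SD, n = 2 each), so KO kept 39.2% of the cKO signal, and the log2 fold change was -1.35 (SE 0.15, adjusted p = 0.0123). The call held without each array in turn, with log2 fold changes from -1.46 to -1.24. It was lost when the variance was not modelled as a trend on signal (adjusted p = 0.0537). Only 1.26% of the genes tested had a lower log2 fold change.

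The other Itga3 probe sets had values of like size. In the fit of single probe sets, where 1.22% of 20967 were called in either direction and 0.925% lower in KO, 2 of the 24 tested probe sets of the 10 genes passed and both were of Itga3. Of the 24, 22 were negative, against a background of 46.9%, and 14 had both KO arrays below both cKO arrays, against 19.3%. The one that passed besides the brightest read 741 and 616 on the cKO arrays, against 194 and 237 on the KO arrays, and its log2 fold change was -1.63 (SE 0.21, adjusted p = 0.0179). The dimmest read 243, 188, 111 and 77.6 in the same order, and its log2 fold change of -1.16 did not pass (adjusted p = 0.143). On all 3 probe sets the groups were separated, with KO at 31.8% to 43.7% of cKO.

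The sequence before the Itga3 start is shown since this gene fell, and it was searched on both strands for the CArG box bound by SRF, for the TEAD site GGAATG, which are the DNA sites of regulators long tied to adhesion genes, and for the GC box GGGCGG, added after the values were known. RefSeq (GRCm38.p6) held promoters for 8 of the 10 genes, 9 promoters in all, and the 250 bases before each start were read. The CArG box was found in 1.47% of 32851 promoters of the same length, GGAATG in 12.6% and GGGCGG in 32.7%. Of the 9 promoters, of which 2 were of Itga3, 1 held a CArG box, 2 held GGAATG and 7 held GGGCGG. The GC content of the 9 ran from 50.8% to 68.0%. The shares among promoters of like GC content or of expressed genes were not counted. The Itga3 promoter lies at chr11:95076715-95076964 on the minus strand and is printed 5′ to 3′ with its 3 GGGCGG matches in capitals.
Itga3: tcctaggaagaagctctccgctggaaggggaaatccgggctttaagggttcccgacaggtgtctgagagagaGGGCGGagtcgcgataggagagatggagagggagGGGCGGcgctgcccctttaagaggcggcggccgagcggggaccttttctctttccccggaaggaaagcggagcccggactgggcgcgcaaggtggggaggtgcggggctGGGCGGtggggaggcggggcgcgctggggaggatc
It held neither of the other motifs. A downstream Itga3 start in the same table held 1 GGGCGG and neither of the others. A match is a description of the letters, and no binding was measured here.

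Itgb1 encodes the beta 1 subunit, a partner of alpha 3, alpha 5, alpha 6 and alpha V. It read 1669 and 1454 on the cKO arrays, against 1116 and 938 on the KO arrays. The groups were separated, and the gap between them was larger than the gap between lines within either group. The means were 1562 ± 152 and 1027 ± 125 (SD, n = 2 each), or 65.8% left in KO, and the log2 fold change of -0.60 (SE 0.17) did not pass (unadjusted p = 0.00808 in limma, adjusted p = 0.148). A second bright probe set read 1735, 1443, 1046 and 836 in the same order and its log2 fold change was -0.76 (SE 0.19, adjusted p = 0.134). The other 4 of its 6 probe sets lay below the filter, with no signal above 71.1, and 1 of them had higher signals in KO, between 14.9 and 41.7 against 2.24 and 2.33. The mean over all 6 probe sets, most of them at background, gave a log2 fold change of -0.03.

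The promoter of Itgb1 (chr8:128685404-128685653, plus strand) is shown since it holds the TEAD letters just before the start. GGAATG, at bases 7 to 2 before the start, and 1 GGGCGG are in capitals.
Itgb1: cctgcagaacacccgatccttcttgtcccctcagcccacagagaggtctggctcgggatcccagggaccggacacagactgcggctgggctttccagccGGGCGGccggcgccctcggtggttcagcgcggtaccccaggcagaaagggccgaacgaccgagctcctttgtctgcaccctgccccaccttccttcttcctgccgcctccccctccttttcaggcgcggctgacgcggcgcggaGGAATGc

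Itga5 encodes the alpha 5 subunit, which forms the classical fibronectin receptor with beta 1. It read 584 and 448 on the cKO arrays, against 334 and 303 on the KO arrays. The groups did not overlap, though cKO line 1 stood well above cKO line 2. The means were 516 ± 96.0 and 318 ± 21.5 (SD, n = 2 each), or 61.7% left in KO, and the log2 fold change of -0.68 (SE 0.20) did not pass (unadjusted p = 0.011 in limma, adjusted p = 0.174). Of its 4 probe sets 3 passed the probe set filter and all 3 were negative, but the dimmer ones gave -0.37 and -0.23 with overlapping groups. Fn1, the gene for fibronectin itself, read 7601 and 7100.2 on the cKO arrays and 8014 and 7274 on the KO arrays, which overlapped, and its log2 fold change was 0.06 (adjusted p = 0.89).

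Itga6 encodes the alpha 6 subunit, a laminin receptor subunit and a common surface marker of stem cells. It read 5628 and 5525 on the cKO arrays, against 4417 and 4930 on the KO arrays. Both KO values lay below both cKO values by a small margin. KO kept 83.8%, and the log2 fold change of -0.26 (SE 0.11) did not pass (adjusted p = 0.39). Its other probe set read 1342, 1228, 1115 and 1299 in the same order, with overlapping groups and a log2 fold change of -0.09. Alpha 3 and alpha 6 are both laminin receptor subunits, and whether their changes differ from each other was not tested.

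Itgav and Itgb5 encode the alpha V and beta 5 subunits, which pair into a vitronectin receptor. Itgav read 2289 and 1699 on the cKO arrays, against 1930 and 1104 on the KO arrays. The groups overlapped, since KO line 1 exceeded cKO line 2, and in each group line 1 was the higher. The log2 fold change was -0.43 (SE 0.28, adjusted p = 0.591), and it ran from -0.83 without KO line 1 to -0.03 without KO line 2. The other 4 Itgav probe sets lay below the filter, with no signal above 64.7.

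Itgb5 read 1317 and 1274 on the cKO arrays, against 1094 and 1036 on the KO arrays, by its brightest probe set. The groups were separated, with little spread inside each. KO kept 82.2%, and the log2 fold change of -0.28 (SE 0.15) did not pass (adjusted p = 0.488). All 4 Itgb5 probe sets were tested, and on each of them both KO arrays lay below both cKO arrays. Their log2 fold changes ran from -0.63 to -0.28, and none passed. The smallest change was on the brightest probe set, whose name ends in x_at, a class that can hold probes matching other transcripts.

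**Figure D2:**
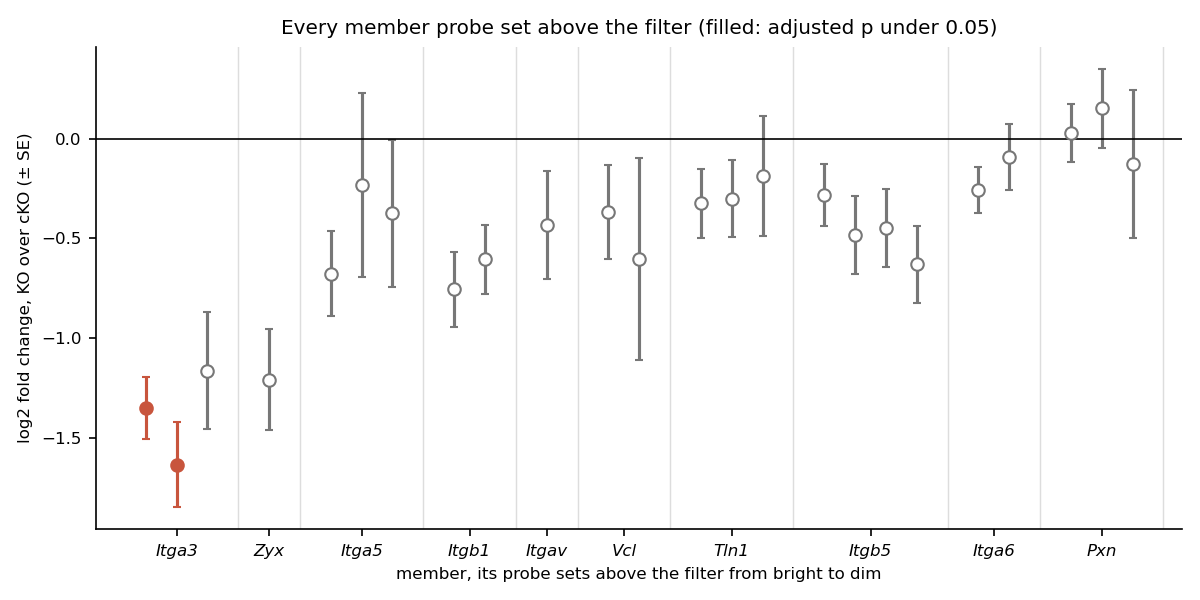
Log2 fold change of KO over cKO with its SE for the 24 probe sets above the filter, grouped by gene and ordered within a gene from bright to dim by cKO mean (filled red, adjusted p under 0.05 in the fit of 20967 probe sets; open, not passed). Of the 24, 22 lie below 0 and the 2 above it are of Pxn. The 2 that pass are of Itga3.

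Zyx encodes zyxin, a LIM-domain protein that goes to stretched actin fibres. It read 1997 and 1392 on the cKO arrays, against 883 and 585 on the KO arrays. The groups were separated, and in each group line 1 was the higher. The means were 1695 ± 428 and 734 ± 211 (SD, n = 2 each), or 43.3% left in KO. The log2 fold change of -1.21 (SE 0.25) was the next lowest of the 10 after Itga3, and it narrowly missed the threshold (unadjusted p = 0.00197 in limma, adjusted p = 0.0683). It passed without cKO line 2 (-1.47, adjusted p = 0.0113), without KO line 1 (-1.50, adjusted p = 0.00171) and with each array centred on its median (-1.22, adjusted p = 0.0265). It did not pass without cKO line 1 (-0.95, adjusted p = 0.103) or without KO line 2 (-0.91, adjusted p = 0.0688). Its other probe set, an x_at one, lay below the filter with signals from 13.6 to 66.4.

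Vcl encodes vinculin. It read 5757 and 3757 on the cKO arrays, against 4337 and 2990 on the KO arrays. The groups overlapped, because KO line 1 exceeded cKO line 2. The gap of 0.62 on the log2 scale between the cKO lines was larger than the log2 fold change of -0.37 (SE 0.24, adjusted p = 0.61), which ran from -0.68 without cKO line 2 to -0.06 without cKO line 1. A dim probe set had a log2 fold change of -0.60 (SE 0.50) and overlapping groups.

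The promoters of Zyx and Vcl are shown side by side because both encode partners of actin fibres and only that of Vcl, among the 9 read, held a CArG box. That of Zyx lies at chr6:42349578-42349827 and that of Vcl at chr14:20929148-20929397, both on the plus strand. Capitals mark all matches, and in Vcl they are, in order, the CArG box CCTTATAAGG at bases 227 to 218 before the start, GGAATG and 4 GGGCGG, of which the first 2 share a base.
Zyx: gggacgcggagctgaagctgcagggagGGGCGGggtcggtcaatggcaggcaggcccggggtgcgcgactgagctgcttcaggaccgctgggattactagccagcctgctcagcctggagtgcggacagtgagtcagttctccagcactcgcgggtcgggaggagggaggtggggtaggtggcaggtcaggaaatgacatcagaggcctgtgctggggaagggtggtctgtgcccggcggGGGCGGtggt
Vcl: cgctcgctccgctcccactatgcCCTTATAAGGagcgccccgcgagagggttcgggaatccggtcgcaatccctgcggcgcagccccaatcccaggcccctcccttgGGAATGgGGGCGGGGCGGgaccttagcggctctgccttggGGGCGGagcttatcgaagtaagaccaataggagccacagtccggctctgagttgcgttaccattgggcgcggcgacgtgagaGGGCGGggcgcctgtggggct
Zyx held 2 GGGCGG matches and neither of the other motifs.

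Tln1 encodes talin 1. It read 1525 and 1239 on the cKO arrays, against 1129 and 1064 on the KO arrays. The groups were separated, with a larger gap between the cKO lines than between the KO lines. KO kept 79.4%, and the log2 fold change of -0.33 (SE 0.17) did not pass (adjusted p = 0.473). All 3 probe sets were negative, from -0.33 to -0.19, and the groups overlapped on the dimmest. Its promoter held none of the 3 motifs, nor did that of Itgav.

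Pxn encodes paxillin. It read 1679 and 1663 on the cKO arrays, against 1636 and 1773 on the KO arrays. The groups overlapped, and the log2 fold change was 0.03 (SE 0.14, adjusted p = 0.965). It was the only gene of the 10 with a positive value, and without KO line 2 the sign turned (-0.03). Its other probe sets gave 0.15 and -0.13, each with overlapping groups.

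Comparing single arrays showed how far the line numbers entered. KO line 1 read below cKO line 1 for 10 of the 10 genes, against 46.6% of all genes tested, and KO line 2 below cKO line 2 for 9 of the 10, against 50.9%. Within the cKO group, line 1 read above line 2 for 10 of the 10, against 50.6%, with a median log2 difference of 0.25. Within the KO group it did so for 8 of the 10, against 53.0%, with a median of 0.18. These differences share arrays with each other and with the group comparison. For 7 genes the log2 fold change was larger in size than the gap between lines in either group, and for the other 3, Itgav, Vcl and Pxn, it was not.

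**Figure D3:**
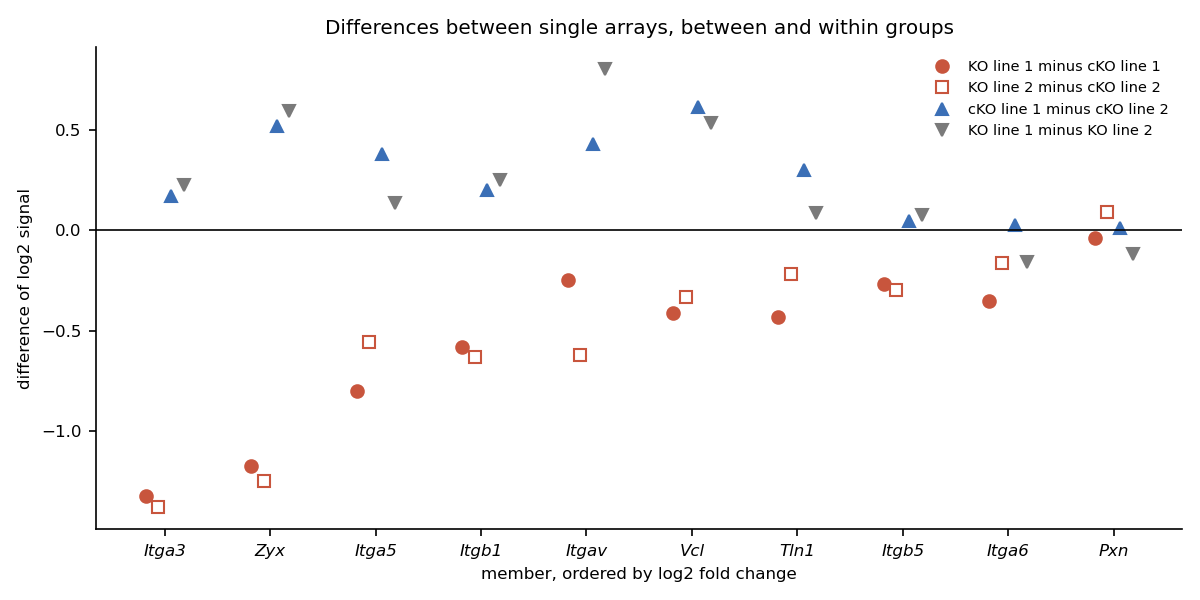
Differences of log2 signal between single arrays for each of the 10 genes, ordered by log2 fold change (red circles, KO line 1 minus cKO line 1; open squares, KO line 2 minus cKO line 2; blue triangles, cKO line 1 minus cKO line 2; grey triangles, KO line 1 minus KO line 2). For Itga3 the differences between groups are -1.32 and -1.38 and those within groups 0.17 and 0.23, while for Vcl they are -0.41 and -0.33 against 0.62 and 0.54.

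Markers of other cells moved with these genes. The summed signal of the 20 fibroblast markers was 6760 and 4677 on the cKO arrays, against 3770 and 3308 on the KO arrays, and that of the 10 adhesion genes was 25675 and 21324 against 18167 and 15828. Fibroblasts, the feeder cells, also express integrins and focal adhesion proteins. Of the 20 markers 14 were tested, 2 fell (Col5a1 and Thy1), and all 14 were negative, against 2.2% called and 48.6% negative over all genes, with a median log2 fold change of -0.69. The median was -0.41 without cKO line 1, with 1 called, and -0.89 without cKO line 2, with 4 called. Without KO line 2 it was -0.85, with 1 called, and none was called in limma with no filter, with the lower 60% left out, with probe sets averaged or without the trend (10, 2, 5 and 9 at an unadjusted p under 0.05). Over all genes an unadjusted p under 0.05 was found for 1837 of 18193, 937 of 7277, 1243 of 10916 and 1549 of 10916 in the same order of settings. None of the 20 markers was at 0 on every array, and Lum, Twist2 and Prrx1 stayed under the filter level of 77.7 on every array. Prrx1 read 30.7 and 31.0 in cKO against 60.1 and 53.8 in KO, and Twist2 50.4 and 46.4 against 12.3 and 11.6. The groups overlapped for Lum. The brightest were Col1a2, at 1068, 644, 461 and 548, Fbln1, at 1026, 742, 1071 and 620, and Col5a2, at 536, 405, 252 and 343, in the same order of lines. The part of fibroblast RNA in the values of the 10 genes was not tested.

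The summed signals of endoderm and trophectoderm markers were lower in KO as well, led by a few bright genes. Most tested markers of both lists were negative, but some were positive. The 12 primitive endoderm markers, which include Col4a1 and Lama1 of the matrix list, summed to 12479 and 11022 in cKO lines and 5119 and 5077 in KO lines, of which Sparc made 7756, 7523, 2313 and 2478, while the regulators Gata4, Gata6 and Sox17 read at most 125 on any array. Of its 5 tested genes 2 fell (Sparc and Col4a1), 1 rose (Lama1), and Dab2 and Amn did not pass. The 10 trophectoderm markers summed to 20135 and 14321 against 8590 and 6063, mostly from the keratins Krt8 and Krt18, which were the 2 of 7 tested that fell (log2 fold changes -1.81 and -1.57). Tfap2c, a transcription factor and the next brightest, read 1346 and 766 in cKO against 2186 and 1412 in KO, higher on both KO arrays (0.79, adjusted p = 0.312), and it passed with cKO line 1 or KO line 2 left out (adjusted p = 0.0333 and 0.0498). Hand1 was also higher on both KO arrays (0.30, adjusted p = 0.708). Of the 7 tested, 5 were negative and 2 positive, with a median log2 fold change of -0.63. Besides Krt8 and Krt18, the negative ones were Ascl2 (-0.67), Eomes (-0.63) and Krt7 (-0.62), which did not pass in limma (adjusted p = 0.33, 0.606 and 0.543). Of these, only Ascl2 had both KO arrays below both cKO arrays. The regulators Cdx2 and Elf5 read at most 141. The 12 stem cell markers summed to 101536 and 99484 in cKO and 117876 and 109164 in KO. None of the 12 passed in limma, and 8 were positive and 4 negative, with a median log2 fold change of 0.16. An unadjusted p under 0.05 in limma was found for 4, against 1509 of 10916 genes tested in either direction. All 4 were higher in KO (Esrrb 0.94, Klf4 0.89, Zfp42 0.51 and Sox2 0.37). Both KO arrays lay above both cKO arrays for 5, against 21.4% of all genes, and below them for 1, against 21.2%. The part of endoderm and trophectoderm cells in the adhesion values was not tested.

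**Figure D4:**
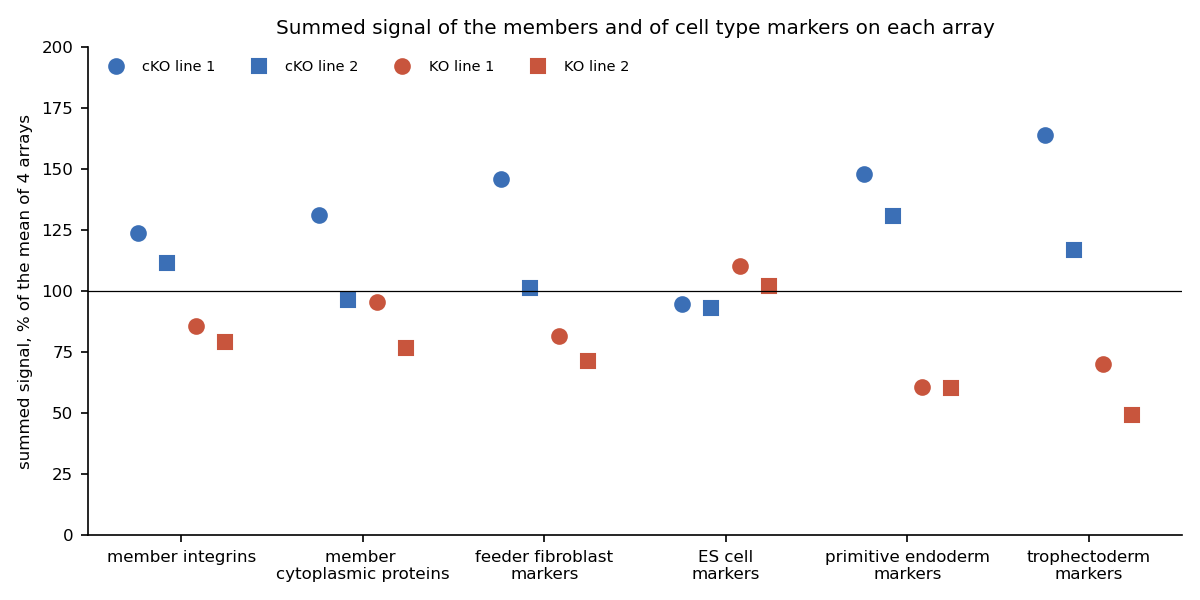
Summed signal of the 6 integrins, the 4 cytoplasmic proteins and 4 lists of cell type markers on each array, as percent of the mean of the 4 arrays for that list (circles, line 1; squares, line 2; blue, cKO; red, KO). The integrin sum lies at 124% and 112% in cKO and 85.6% and 79.1% in KO, and the fibroblast sum at 146% and 101% in cKO and 81.5% and 71.5% in KO.

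The other genes of the adhesion machinery were taken from 5 lists, in which 89 of 121 genes were tested and 8 passed, 6 lower and 2 higher in KO, or 8.99% against 2.2% of all genes. Their median log2 fold change was -0.12. The lists too were chosen with earlier results of these data known, so this share is no independent test. The 8 became 14 without cKO line 2 and 13 without KO line 1, 4 with no filter, 2 with all probe sets of a gene averaged and 1 without the variance trend.

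Among the proteins on the actin side of adhesions, the partners of Zyx and Vcl, 4 of 23 tested genes fell and 19 did not pass, with a median of -0.21. The log2 fold change of Palld (palladin, an actin bundler) was -1.58 (SE 0.19, adjusted p = 0.0162), that of Flnc (filamin C, an actin crosslinker) -1.58 (SE 0.25, adjusted p = 0.0285), Csrp1 (a LIM-domain protein of actin fibres) -1.38 (adjusted p = 0.0197) and Lpp (a relative of zyxin) -1.22 (adjusted p = 0.0228). Lpp read 1632 and 1413 on the cKO arrays, against 585 and 719 on the KO arrays. All 8 Lpp probe sets and all 3 of Palld above the filter were negative, but some by as little as -0.11 and -0.30. The call of Flnc ended without cKO line 1 (adjusted p = 0.109), without cKO line 2 (adjusted p = 0.0628) and with no filter (adjusted p = 0.0781), and those of Palld, Csrp1 and Lpp with the mean of their probe sets. The calls of Palld, Csrp1 and Lpp also ended without the variance trend. None of the 4 genes that fell held a CArG box in the promoters read, a motif held by 1.62% of all genes. Flnc, Lpp and Palld each held GGAATG in 1 of their promoters and Csrp1 did not, against 14.4% of all genes. No binding was measured.

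Of 27 tested kinases and adaptors 1 passed, Kank2, a talin-binding protein found at the rim of adhesions, which rose from 1645 ± 121 to 3298 ± 377 (SD, n = 2 each; log2 fold change 1.00, SE 0.15, adjusted p = 0.0256). With each array centred on its median its adjusted p was 0.0528, and with its probe sets averaged 0.0939. Of the other integrin subunits 18 of 20 had a named probe set, 7 passed the filter and none passed the test in limma, with 0 of the 7 at an unadjusted p under 0.05. Their log2 fold changes ran from 0.03 to 0.53, with overlapping groups for all 7 and a summed signal of only 949 to 1268 an array. Their difference from the 6 integrins above was not tested. The largest were Itga2b (0.53, adjusted p = 0.652) and Itgb4 (0.49, adjusted p = 0.792), of which Itgb4 turned to -0.40 without cKO line 2. With an array left out, the median of the 7 ran from 0.0040 to 0.34, and up to 3 of the 7 were negative. With probe sets averaged 1 of the 7 was negative, and with no filter 6 of the 18 were negative and 12 positive. Among those under the filter, Itgb8 read 101 and 65.7 in cKO against 22.8 and 26.3 in KO. Itgb3, also under it, read 19.4 and 18.5 against 41.3 and 45.4.

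Among the matrix ligands 3 of 17 tested passed, 2 lower and 1 higher, with a median of -0.13. The median was 0.041 without cKO line 1 and -0.41 without KO line 1, and the count was 1 without cKO line 1, 7 without cKO line 2 and 5 without KO line 1. Lamb1 (the laminin beta 1 chain) and Col4a1 (a collagen IV chain), both of the basement membrane, had log2 fold changes of -0.87 (SE 0.16, adjusted p = 0.0483) and -1.15 (SE 0.21, adjusted p = 0.0483), and Lama1 (the laminin alpha 1 chain) one of 0.87 (SE 0.16, adjusted p = 0.043). No matrix ligand passed in limma with no filter, with probe sets averaged or without the variance trend, and 1 passed with quantile normalization. In the first 3 of these settings 9 of 22, 6 of 17 and 6 of 17 had an unadjusted p under 0.05. Over all genes the counts were 1837 of 18193, 1243 of 10916 and 1549 of 10916. With arrays left out, the call of Col4a1 ended without cKO line 1 (adjusted p = 0.0911), that of Lamb1 without cKO line 1 or KO line 1 (adjusted p = 0.128 and 0.0823), and that of Lama1 with cKO line 1, cKO line 2 or KO line 2 left out (adjusted p = 0.0791, 0.105 and 0.104). Of 15 tested membrane partners and inhibitors of integrins 0 passed in limma. An unadjusted p under 0.05 was found for 6 of the 15, against 1509 of the 10916 genes tested. Those of smallest p were Cd47, a partner of integrins that contain alpha V (-0.71, adjusted p = 0.119), and Cav1, the gene for caveolin 1 (-1.20, adjusted p = 0.149).

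**Figure D5:**
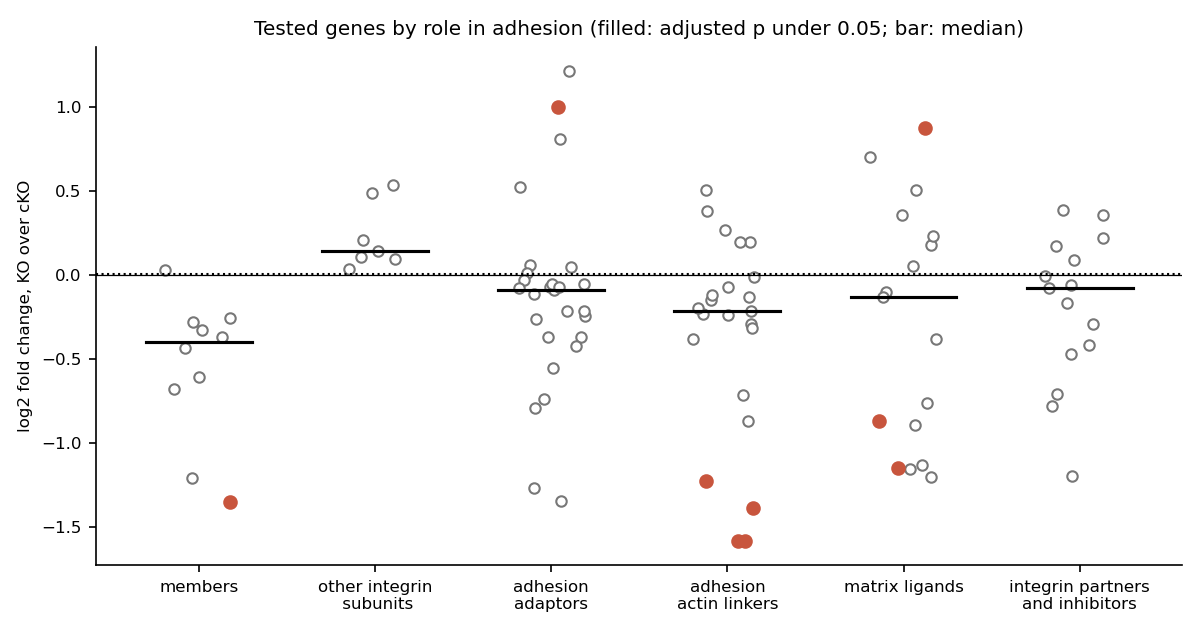
Log2 fold change of KO over cKO for the 10 genes and for the tested genes of 5 lists by role (filled red, adjusted p under 0.05; open grey, not passed; bar, median of the list; dotted line, median of all genes at 0.01). The 10 genes have a median of -0.40 and the 7 other integrin subunits one of 0.14 (0.0040 to 0.34 with an array left out), while the actin linkers hold 4 of the 8 filled points of the 5 lists.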

How the data were processed

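RNA of 4 cell lines was hybridised to 1 array each. The authors deposited linear intensity values, 1 for each probe set. The submitters' processing notes name MAS5 (version and settings not given in the sources used here). Each array had a mean of 500.0 after trimming 2% from each end. No further normalization was applied. Of 45101 probe sets, 34945 named 1 gene in the platform annotation (64 controls left out), and 34741 took a current symbol through RefSeq (GRCm38.p6). The probe set of highest mean log2 signal stood for a gene, the lower 40% of genes were left out, and log2(signal + 4.79), with the 10th percentile of all values as pseudocount, was fitted with limma 3.58.1 in R 4.3.3 (eBayes with a variance trend, 2 residual and 5.13 prior degrees of freedom, Benjamini-Hochberg adjustment). Fold changes on this scale understate those of dim genes. Probe sets were also fitted singly, above a signal of 53.8. With 2 against 2 an exact permutation test cannot go below p = 0.333. The number of arrays limits the precision.

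The genes named are the 10 members, up to 4 called genes per adhesion list or the 2 of smallest p, the 3 brightest of each marker list and Kdm6a; other names were chosen after their values were seen. The members and lists were chosen with earlier results of these data known. Some listed genes were not analysed here. The fit was also run on simulated data with noise independent between arrays. That setting lacks the correlation by line number given below, so it does not test the calls made here. Alternatives were the pseudocount (1, or the 25th percentile), the filter (none, or the lower 60%), centring on the median, quantile normalization, averaging all probe sets of a gene, no variance trend, the line number as a block, and each array left out. Summaries, promoter searches and plots used Python 3.11.15 with pandas 2.3.3 and matplotlib 3.10.9.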

Additional observations from a re-analysis of the deposited data

How the results depend on the processing

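Itga3 was the member called under 12 of 13 alternatives, alone or with others. The count of the 10 genes called was 2 with centring on the median (Itga3 and Zyx), 0 without the variance trend in limma (4 at an unadjusted p under 0.05), and 1 to 2 with an array left out. Of the member probe sets 0 passed without the trend (8 at an unadjusted p under 0.05). Over all genes 1549 of 10916 had an unadjusted p under 0.05 in limma without the trend. Of the 5 adhesion lists 4 genes passed with no filter, 2 with the mean of probe sets, 1 without the trend and 6 to 14 with an array left out. Over all genes the counts were 147 with no filter, 154 with the lower 60% left out, 129 with the mean of probe sets, 28 without the trend and 228 to 432 with an array left out.

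The labels give both groups lines 1 and 2 but do not pair them. Deviations from the group means correlated between same-numbered lines with r = 0.52 across genes. The median signals also went with the line number, at 76.6 (cKO) and 81.6 (KO) for line 1 and 64.4 and 64.9 for line 2. The source of the correlation was not tested, and it does not show that the lines are pairs. With the line number as a replicate block, 5 members (Itga3, Itga5, Itgb1, Vcl and Zyx) and 9 of their probe sets passed, as did 28 genes of the adhesion lists and 1048 of all genes.

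Signs turned for Dppa5a with quantile normalization (-0.020) and for Fbln1 with the mean of probe sets (0.21). With an array left out, log2 fold changes ran across 0 for Pxn (-0.030 to 0.086), Dppa5a (-0.070 to 0.11), Fbln1 (-0.49 to 0.29, with 0.13 without cKO line 1), Itgb4 (-0.40 to 1.37) and Tdgf1 (-0.12 to 0.056). The cause was not tested. Signal near background limits the dim probe sets: the filter left out 10 of the 34, and with no filter all 34 were tested and 2 passed.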

Other observations

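The 3 proteins that form a complex next to the beta subunit tail, integrin-linked kinase, a PINCH protein and a parvin, gave unlike values. These genes were picked after their values were seen. Ilk read 2395 and 2050 on the cKO arrays, against 1254 and 1409 on the KO arrays (log2 fold change -0.74, SE 0.16, limma, adjusted p = 0.069). Lims1, which encodes a PINCH protein, gave 0.06 (adjusted p = 0.927). Parva, for alpha-parvin, read 355, 271, 99.4 and 159 in the same order (-1.27, SE 0.29, adjusted p = 0.0884). Parvb, for beta-parvin, read 687, 425, 1454 and 1094 (1.22, SE 0.26, adjusted p = 0.0712). Both KO arrays lay below both cKO arrays for Ilk and Parva and above them for Parvb, and none of these genes passed the threshold. Both tested Parva probe sets were negative, and 1 probe set of Parvb was tested.

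Dock1, an activator of Rac downstream of adhesions, and Tns3, a tensin that links integrins to actin, also had higher values in KO without passing, with log2 fold changes of 0.81 (adjusted p = 0.0878) and 0.52 (adjusted p = 0.0925). Among the adaptors Tgfb1i1, the gene for the paxillin relative Hic-5, had the lowest value, -1.34 (SE 0.43, adjusted p = 0.215), with signals of 501 and 215 in cKO against 165 and 97.0 in KO.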
